A study of Mus musculus with 11 samples.

Results

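Imprinted genes are read from the maternal or the paternal chromosome only, and the choice is set by regions whose DNA is methylated on a single parental copy. A mixture of both copies at such a region therefore gives a methylation level close to 50%, much the same in every animal. The 41 genes described here are mouse imprinted genes that lie outside the growth domain of Igf2, H19 and Kcnq1. Their regions were picked by gene symbol. The members fall in 21 loci, from single genes such as Grb10 to clusters such as Snrpn with Ndn, Magel2, Mkrn3, Peg12 and Ube3a. Of the 41 members, 33 had a promoter among the 24391 promoters of the series and 40 had a gene body among 25802. Members without a promoter value were Dlk1, Rtl1, Peg13, Cdh15, Mest, Rian, Impact and Usp29, and Peg13 had no gene body value. Together with 44 of the 14841 CpG islands, those that overlap these promoters or bodies, the members made up 118 regions, since Snrpn had 2 body entries. They shared 9 sets of regions, 19 regions in all, with identical values in every summary, being regions that overlap and share their CpG sites (Sgce and Peg10 promoters, for example), so the 118 regions are not independent.

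The data are DNA methylation levels of whole pancreas taken from C57BL/6N mouse pups on postnatal day 0, from reduced representation bisulfite sequencing after cutting with MspI and TaqI. Their mothers had been injected with amphetamine at 10 mg/kg, a psychostimulant that raises extracellular monoamines, or with saline on embryonic days 14.5, 15.5 and 16.5. The amphetamine group held 5 pups (3 females and 2 males) and the saline group 6 (3 females and 3 males); every pup was wild type, and litters were not given in the labels, so p-values measure the spread between pups that may be littermates. Whole pancreas mixes exocrine, endocrine, vascular and other cells, and DNA methylation alone offers no marker list by which the tissue could be checked here.

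Values per mouse were not analysed. Each region has the authors' mean, SD, lowest and highest mouse for each group, and these are given below as methylation levels in percent. Differences are amphetamine minus saline, in percentage points, and the groups hold 5 and 6 mice unless other numbers are given. Regions were compared with limma's moderated test, rebuilt from group means, SDs and numbers of mice over all regions of a class and adjusted by the Benjamini-Hochberg method over that class. The mean deposited coverage of member regions was higher in amphetamine mice, 1.27 times that of saline mice summed over the promoters, 1.23 times over the bodies and 1.26 times over the islands, and the part of this gap in the differences below was not tested. The sources used here did not state whether the coverage of a region sums or averages its CpG sites. The Gnas body had a saline mean coverage of 4965, and no 5000 bp tile over it had more than 1479, which an average over sites could not give. Coverage thus adds up over the CpG sites of a region and is not a depth per site.

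A few windows are shown first, because the results turn on the regions that hold them. They come from the RefSeq GRCm38 genome, plus strand, are free of annotated exons, and have CpG sites in capitals. The Gnas window lies just upstream of the first Gnas exon, which encodes NESP55, and belongs to the promoter with the largest difference of all member promoters. The next window lies in the CpG island at the exon of the extra-large Gnas protein, the island of members with the narrowest spread around an intermediate level. The Peg3 window begins the promoter region, in an intron of Peg3, a paternally expressed zinc finger gene, and the Meg3 window precedes the start of a maternally expressed long RNA. The last window lies in an intron of Igf2r, in the island at the start of Airn, the antisense RNA that silences paternal Igf2r.
Gnas promoter, chr2:174283985-174284284: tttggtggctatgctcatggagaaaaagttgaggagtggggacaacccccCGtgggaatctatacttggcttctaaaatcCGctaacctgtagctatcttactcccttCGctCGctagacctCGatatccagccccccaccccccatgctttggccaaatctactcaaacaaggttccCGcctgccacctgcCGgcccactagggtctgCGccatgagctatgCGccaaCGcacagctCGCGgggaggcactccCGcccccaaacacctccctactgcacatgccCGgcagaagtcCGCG
Gnas extra-large island, chr2:174300219-174300398: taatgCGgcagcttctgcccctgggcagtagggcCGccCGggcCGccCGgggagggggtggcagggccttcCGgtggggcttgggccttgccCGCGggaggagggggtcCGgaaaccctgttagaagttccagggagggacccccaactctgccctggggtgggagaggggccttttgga
Peg3 promoter, chr7:6729922-6730221: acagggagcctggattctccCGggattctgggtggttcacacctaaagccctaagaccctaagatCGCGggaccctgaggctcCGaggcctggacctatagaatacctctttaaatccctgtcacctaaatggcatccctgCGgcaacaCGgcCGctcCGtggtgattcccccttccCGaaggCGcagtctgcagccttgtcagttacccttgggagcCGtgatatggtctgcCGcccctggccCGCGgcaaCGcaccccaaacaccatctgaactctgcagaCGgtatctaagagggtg
Meg3 promoter, chr12:109540556-109540855: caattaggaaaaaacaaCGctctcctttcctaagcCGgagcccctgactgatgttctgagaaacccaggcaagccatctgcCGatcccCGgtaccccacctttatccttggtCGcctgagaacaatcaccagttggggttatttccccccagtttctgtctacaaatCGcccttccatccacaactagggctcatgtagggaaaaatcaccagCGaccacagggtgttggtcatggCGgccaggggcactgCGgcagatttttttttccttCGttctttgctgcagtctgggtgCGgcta
Igf2r intronic island, chr17:12742181-12742480: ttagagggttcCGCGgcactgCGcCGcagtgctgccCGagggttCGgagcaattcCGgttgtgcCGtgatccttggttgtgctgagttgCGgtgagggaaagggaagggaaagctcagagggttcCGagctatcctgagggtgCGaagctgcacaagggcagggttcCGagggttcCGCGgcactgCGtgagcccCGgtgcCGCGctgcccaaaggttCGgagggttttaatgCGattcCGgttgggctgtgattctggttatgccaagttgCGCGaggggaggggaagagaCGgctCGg

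These windows hold 16, 9, 16, 11 and 25 CpG sites, of which 15, 9, 4, 6 and 22 lie within 50 bases of an MspI or TaqI site and so could be reached by a read of the library. The letters TGCCGC, the motif bound by ZFP57, a zinc finger protein that keeps methylation at imprinted regions in the embryo, occur on either strand 0, 1, 3, 1 and 3 times in them.

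The first question was which members sat near 50% in saline mice with little spread between mice. A mean of 40 to 60% with an SD of at most 10 percentage points was met by 3 of 33 member promoters (9.09%), against 125 of 23176 autosomal promoters (0.539%). Among islands it was met by 2 of 44 (4.55%), against 16 of 14428 (0.111%). For gene bodies the shares lay closer together: 7 of 41 member bodies (17.1%) and 3114 of 24521 autosomal bodies (12.7%) met it. The 3 promoters were those of Peg3, Meg3 and Blcap, and the 2 islands were the Gnas extra-large island and the Peg3 island.

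**Figure D1:**
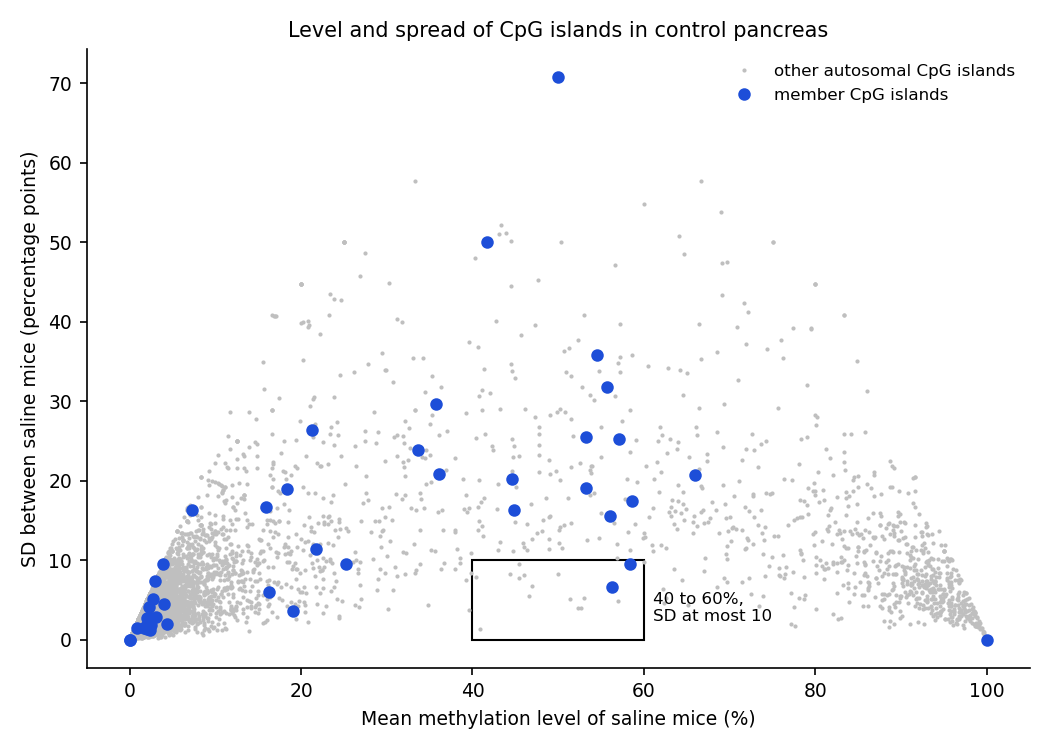
Each point is an autosomal CpG island, with the mean methylation level of the saline mice in percent on the horizontal axis and the SD between those mice in percentage points on the vertical axis; member islands are blue and all others grey. The box marks 40 to 60% with an SD of at most 10 points and holds 2 of the 44 member islands, while most islands lie under 10%.

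The Gnas extra-large island (chr2:174298464-174300644, 2181 bases, 90.2% annotated as exon) was the most even of the intermediate islands. In saline mice it ranged from 49.1 to 64.5% around a mean of 56.3% ± 6.68 (SD, n = 6). In amphetamine mice it ranged from 42.7 to 65.4% around 55.5% ± 8.78 (SD, n = 5). The 2 groups overlapped almost fully, and the difference was -0.735 percentage points with a 95% interval of -10.7 to 9.18. Its mean coverage was 519 in saline and 615.4 in amphetamine mice over 125 reachable CpG sites, the highest total of these 5 regions. Per reachable site the saline coverage was only 4.15. It was 20.9 at the Blcap promoter, 8.05 at the Meg3 promoter, 6.26 at the Peg3 promoter and 4.08 at the Peg3 island.

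Peg3 was the only locus with both a promoter and an island in the set. Its promoter (chr7:6729922-6731921), shared with the start of the divergent gene Usp29, ranged from 44.8 to 63.5% in saline mice (mean 55.2% ± 8.46, SD, n = 6). The amphetamine mice spread from 23.1 to 63.0% around 45.1% ± 18.9 (SD, n = 5). The saline range lay above the lowest amphetamine mouse, and the difference was -10.1 percentage points (interval -28.4 to 8.18, adjusted p = 0.958). The Peg3 island (chr7:6730063-6730398, 13 reachable CpG sites), inside that promoter region, was at 58.4% ± 9.49 (SD, n = 6) in saline mice and 50.1% ± 16.2 (SD, n = 5) in amphetamine mice. It thus shares CpG sites with the promoter, and its difference of -8.28 (interval -24.9 to 8.36, adjusted p = 0.923) is not a second observation.

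The Meg3 promoter (chr12:109539501-109541500), a region that becomes methylated on the paternal copy after fertilisation, ranged from 46.5 to 69.3% in saline mice around 53.5% ± 8.01 (SD, n = 6). In amphetamine mice it ranged from 30.3 to 59.3% around 45.2% ± 11.8 (SD, n = 5). The ranges overlapped from 46.5 to 59.3%, and the difference was -8.30 percentage points (interval -21.1 to 4.50, adjusted p = 0.958). A 5000 bp tile that ends 11001 bases upstream of the Meg3 start, in the stretch between Dlk1 and Meg3 that carries the germline imprint of the cluster, was at 54.6% with an SD of 7.32 in saline mice and at 57.9% in amphetamine mice. The tile over the Meg3 start was at 57.6% with an SD of 4.02 in saline mice and at 51.0% in amphetamine mice, a difference of -6.66 with an interval of -14.4 to 1.07.

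The Blcap promoter (chr2:157570775-157572774) entered the set at its lower edge. Blcap encodes a small membrane protein and surrounds the paternally expressed Nnat, but this promoter lies outside the island at Nnat and holds only 5 reachable CpG sites. It ranged from 31.2 to 45.5% in saline mice (mean 41.1% ± 5.14, SD, n = 6) and from 18.7 to 40.7% in amphetamine mice (30.1% ± 8.90, SD, n = 5). The difference was -11.0 percentage points (interval -20.2 to -1.83), with an unadjusted p of 0.0235 and an adjusted p of 0.958. In the 5000 bp tile that holds this promoter region the order of the means was the opposite, 44.9% in amphetamine and 41.05% in saline mice.

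In each of the 5 regions the SD was larger among amphetamine mice than among saline mice. The saline SD chose these regions, so no test is given, and all 125 autosomal promoters chosen the same way had a median SD of 7.03 points in saline mice and 10.3 in amphetamine mice.

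Members just outside the limit were the Zrsr1 promoter, with a saline mean of 43.3% and an SD of 12.1, and the Mcts2 island, at 56.0% with an SD of 15.6. Both are retrogenes read from the paternal copy that lie inside an intron of a host gene, Commd1 and H13.

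Many more members had an intermediate mean than a narrow spread. Of 33 member promoters 11 (33.3%) had a saline mean of 40 to 60%, against 5.02% of autosomal promoters. Of 44 member islands 13 (29.5%) did, against 1.11% of autosomal islands. With 35 to 65%, 15 member islands in 13 loci counted as intermediate. Their SD between saline mice ran from 6.68 to 70.7 percentage points with a median of 20.8. For the 13 islands at 40 to 60% the median was 20.2, against 21.2 for all 160 autosomal islands at that level, so a wide spread was shared with other islands of intermediate level. Of the 15 islands, 12 had reads in all 11 mice. The Gnas island at chr2:174286012-174286221 rested on 2 saline mice, at 0 and 100%.

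Among the intermediate islands with reads in all mice, the 2 widest saline ranges were at Nnat and Peg10, both paternally expressed genes. The Nnat island (neuronatin, chr2:157560051-157560581) ran from 0.962 to 96.7% in saline mice and from 32.8 to 66.7% in amphetamine mice, with means of 55.7 and 54.1%. The island at Peg10 (chr6:4747292-4748412), a gene derived from a retrotransposon, ran from 16.7 to 100% in saline mice and from 18.3 to 86.8% in amphetamine mice, with means of 54.5 and 58.5%. At both, saline mice lay far to either side of a mean near the middle. The lowest saline coverage was 10 over 46 reachable CpG sites at Nnat and 41 over 24 at Peg10. At each island the lowest amphetamine coverage was higher. Group summaries do not show whether the mice with the lowest coverage had the extreme levels. Across the 15 intermediate islands, saline SD and saline coverage per reachable site had a Spearman correlation of -0.4. The part of read depth in these ranges was not tested. The island of Plagl1 (a zinc finger regulator of growth genes, chr10:13090533-13091299) ran from 24.2 to 89.2% in saline and from 43.8 to 76.7% in amphetamine mice. The island inside Trappc9 at which Peg13 is annotated (chr15:72809538-72810123) ran from 11.1 to 79.2% and from 34.7 to 70.6%. At both, the amphetamine range lay inside the saline range. The Grb10 island (growth factor receptor adaptor, chr11:12025555-12026332) ran from 40.4 to 86.5% in saline mice and from 49.3 to 69.4% in amphetamine mice.

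**Figure D2:**
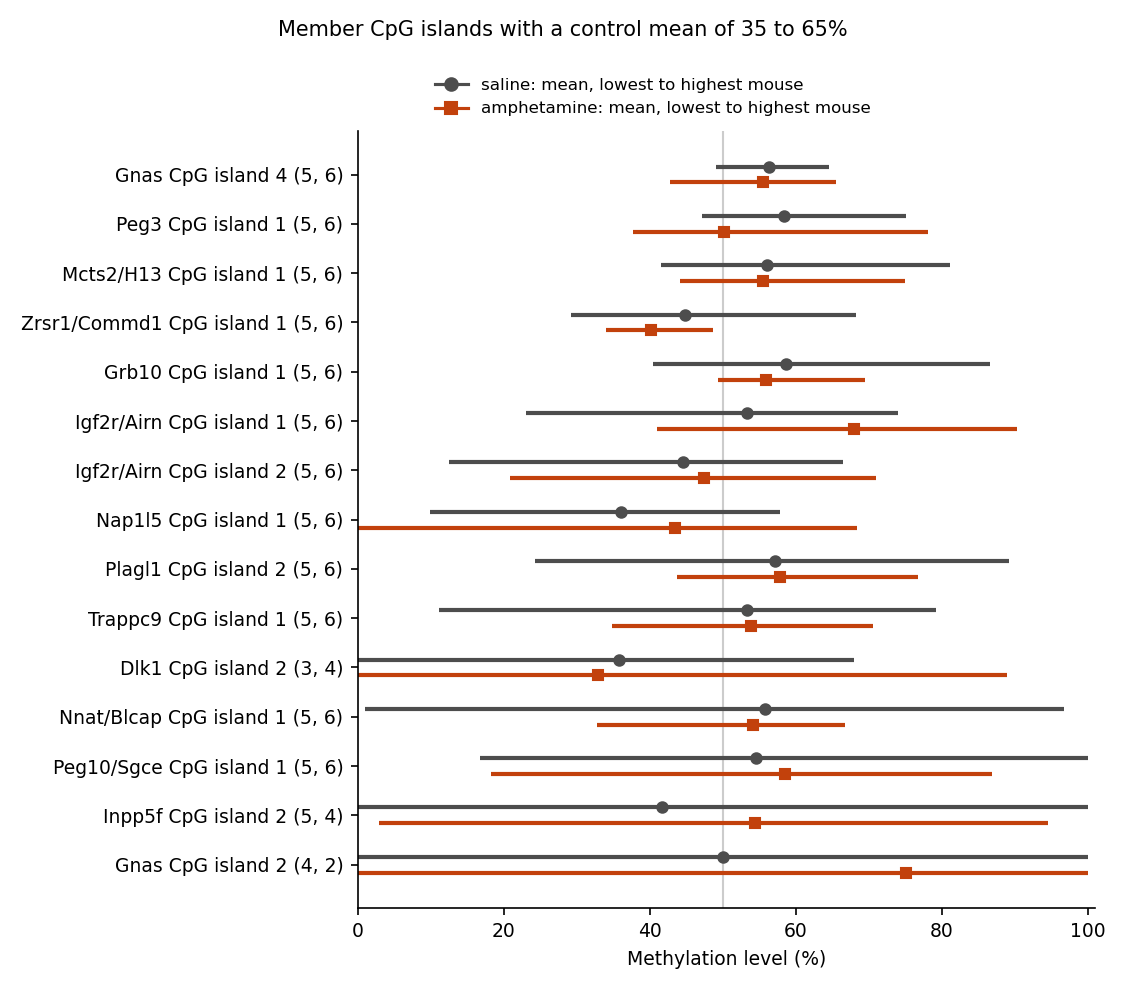
For the 15 member islands with a saline mean of 35 to 65%, lines run from the lowest to the highest mouse and symbols mark the group mean, as methylation level in percent on the horizontal axis; the numbers of amphetamine and saline mice with reads follow each name, and islands of a label are numbered along the chromosome. Islands are sorted by the SD between saline mice, from 6.68 points at the Gnas extra-large island (Gnas CpG island 4) to 70.7 points at the Gnas island with reads in 2 saline mice, and the ranges of the groups overlap in all 15.

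Of these 15 islands the amphetamine mean was higher at 8 and lower at 7, with a median difference of 0.501 percentage points. The differences ran from -8.28 at the Peg3 island to 25 at the Gnas island with 2 saline mice. At the Igf2r intronic island (chr17:12741441-12742489), from which a window is shown above, saline mice ran from 23.0 to 74.0% around 53.3% and amphetamine mice from 41.01 to 90.3% around 67.9%. The interval of that difference, 14.6 percentage points, was -10.3 to 39.5. At the island of the Igf2r promoter (chr17:12769059-12770009), methylated on the silent paternal copy, the means were 44.6% in saline and 47.4% in amphetamine mice.

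The ZFP57 letters were found in 13 of the 15 intermediate islands (86.7%), with 4.44 matches per kb. They were found in 10 of the 19 member islands under 10% in saline mice (52.6%, 0.92 per kb) and in 50.6% of all 14428 autosomal islands (1.28 per kb). The 2 intermediate islands without a match were the Zrsr1 island and the Gnas island at chr2:174286012-174286221. In the 300 bases at the centre of each island the shares were 80%, 26.3% and 31.9%. The Igf2r intronic island held 7 matches, and the Gnas extra-large, Plagl1 and Inpp5f islands held 6 each. A match is a stretch of letters and not a bound site.

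In saline mice 13 of 33 member promoters (39.4%) were under 10%, a smaller share than the 54.5% of autosomal promoters. Among them were those of Ube3a (a ubiquitin ligase read from the maternal copy in neurons, 0.0521%), Copg2 (1.72%) and Klf14 (2.65%). The placental imprinted genes Sfmbt2 (3.57%), Gab1 (2.92%) and Phactr2 (3.85%) were also among them. The Mirg promoter, of a maternally expressed microRNA host gene, was over 80% (94.9%). In the Snrpn cluster the promoter of Snrpn was at 45.0% with an SD of 20.9, whereas Magel2 (25.2%), Mkrn3 (22.5%) and Peg12 (16.9%), which are also read from the paternal copy, lay lower. The Magel2 body (48.6% with an SD of 4.08 in saline mice) was 1 of the 7 bodies near 50%, with those of H13, Gnas, Inpp5f, Gab1, Rasgrf1 and Phactr2. The level of a body can average high and low parts. For the Gnas body, at 40.3%, the 5000 bp tiles that overlap it ran from 4.995 to 86.7% in saline mice among those read in all mice.

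In the Dlk1-Meg3 cluster the paternally expressed genes differed from each other: the Dlk1 body, of a Notch-like growth regulator, was at 13.2% in saline mice, and the body of Rtl1, a gene derived from a retrotransposon and needed in placenta, at 92.1%. The RNA genes of the maternal copy lay between or above, at 65.7% for the Meg3 body, 66.5% for Rian and 96.5% for Mirg. In amphetamine mice Dlk1 was at 10.96%, Rtl1 at 91.7%, Meg3 at 62.9%, Rian at 65.3% and Mirg at 85.0%. All 5 means were lower than in saline mice, and each lay within the range of single saline mice. The lowest amphetamine mouse lay below that range at Dlk1 (3.33 against 6.74%), Rtl1 (81.4 against 88.4%), Meg3 (51.1 against 58.3%) and Mirg (66.7 against 79.0%), but not at Rian. In the Peg3 cluster the bodies were high, 80.02% for Peg3, 85.3% for Zim1 and 84.2% for Usp29 in saline mice, with 82.3, 86.1 and 89.4% in amphetamine mice. In the Igf2r cluster the promoter of Slc22a3, a cation transporter that clears monoamines, was at 8.79% in saline mice and 10.8% in amphetamine mice, and its body at 67.7 and 68.1%.

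Tiles of 5000 bp over member bodies and 20000 bp to each side gave 8 of 453 near 50% with a low SD (1.77%), against 0.897% of autosomal tiles. Beside the Gnas, Peg3, Magel2 and Meg3 tiles they included a tile inside Sfmbt2 at 46.8% with an SD of 7.08 and a tile inside Cdh15, a cadherin, at 52.4% with an SD of 7.71. In amphetamine mice these were at 42.9 and 62.2%.

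Treatment was the second question. After adjustment no member promoter, body, island or tile passed 0.05 in limma's moderated test. The background of calls was as low, 0.0164% of promoters, 0.0116% of bodies, 0.0135% of islands and 0.0185% of tiles in the series. At an unadjusted p under 0.05 there were 2 member promoters of 33, against 4.11% of all promoters, 0 bodies of 41 against 4.38%, and 1 island of 44 against 4.1%. Of 452 tested tiles 17 passed it (3.76%), against 4.4% of all tiles. These shares of members lay near the background. With reads in all mice, 0 of 31 member promoters, 0 of 40 bodies and 0 of 35 islands had groups whose ranges did not overlap, against 0.395% of promoters, 0.312% of bodies and 0.443% of islands of the series read in all mice. Among members read in fewer mice, the ranges did not overlap at the Impact island, described below.

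Directions were mixed. The amphetamine mean was higher at 14 and lower at 19 promoters with a median of -0.279 percentage points, where the median of all promoters was 0. It was higher at 24 and lower at 17 bodies with a median of 0.700 (all bodies -0.0852), and higher at 18 and lower at 24 islands with a median of -0.229 (all islands 0).

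**Figure D3:**
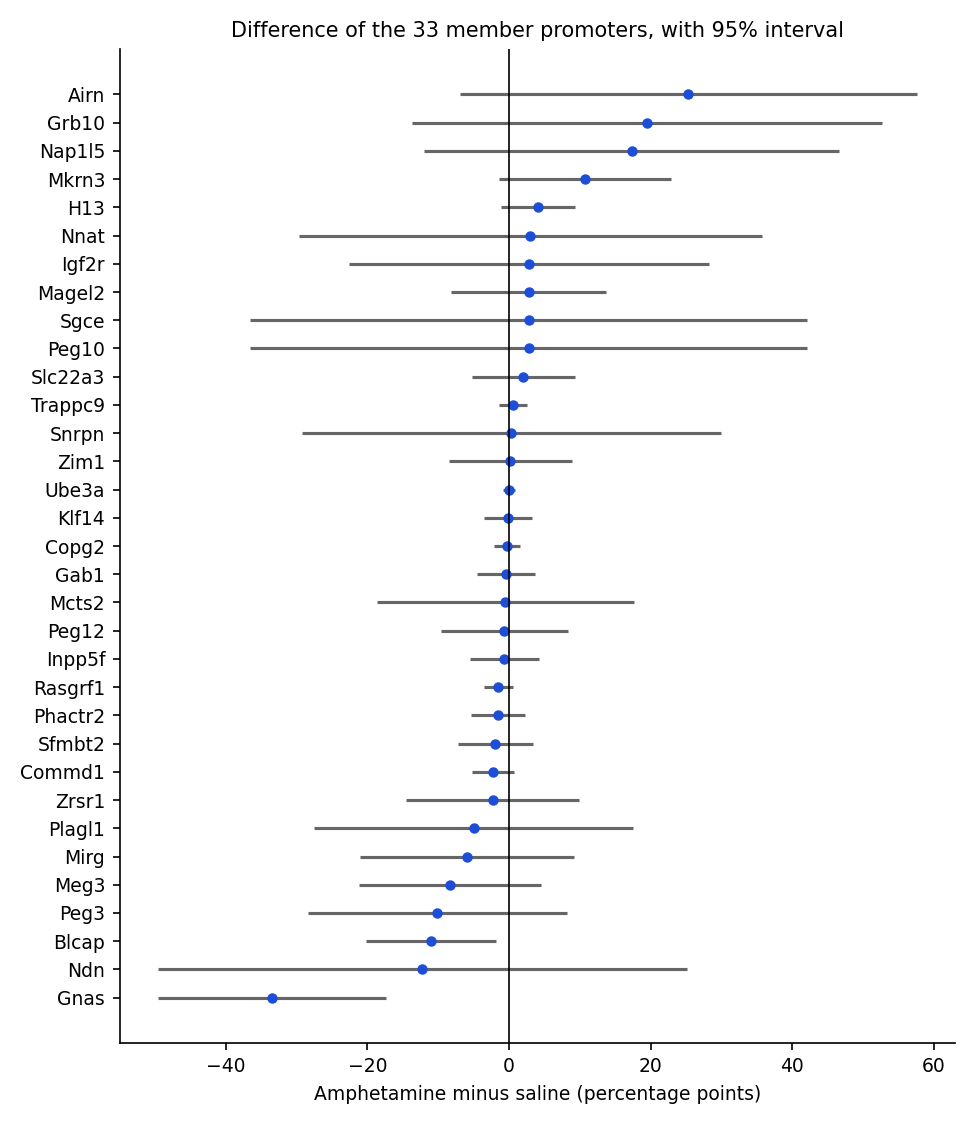
Points give the amphetamine minus saline difference in methylation of the 33 member promoters in percentage points, and lines its 95% interval from limma's moderated test. Intervals of Gnas and Blcap lie below 0, and the other 31 cross it, several of them, such as Sgce and Peg10 (which share their CpG sites), over more than 25 points to each side.

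The promoter labelled Gnas (chr2:174282820-174284819) had the largest difference of the member promoters. Gnas encodes the stimulatory G protein subunit that couples receptors for glucagon and many other hormones to cyclic AMP, and this start, the most upstream of the locus, is that of the maternally expressed NESP55, with the antisense RNA Nespas across it. In saline mice the level ran from 59.98 to 79.3% around 71.7% ± 7.31 (SD, n = 6). In amphetamine mice it ran from 15.6 to 60.2% around 38.2% ± 16.7 (SD, n = 5). The highest amphetamine mouse lay just above the lowest saline mouse, and otherwise the groups were apart. The difference was -33.4 percentage points (SE 7.19, interval -49.5 to -17.4), with an unadjusted p of 0.000951 and an adjusted p of 0.702. Mean coverage was 211 in amphetamine and 176.7 in saline mice over 37 reachable CpG sites, and the lowest mouse had 133 and 112. By sex the same region stood at 54.3% in females and 59.1% in males, and the lowest mouse, at 15.6%, was a female.

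Overlapping and neighbouring regions of Gnas had smaller differences, which were not tested against that of the promoter. The island over the NESP55 exon (chr2:174284648-174285390), which overlaps the promoter region at its downstream end, ran from 31.8 to 89.5% in saline mice and from 31.5 to 91.1% in amphetamine mice, with means of 65.9 and 54.0% and a difference of -11.9 (interval -39.6 to 15.8). The 5000 bp tile that holds the whole promoter region, and so the same CpG sites with others, was at 66.7% ± 13.6 (SD, n = 6) in saline mice and at 47.7% in amphetamine mice, a difference of -19.03 with an unadjusted p of 0.0361 and an adjusted p of 0.965. The next tile downstream was higher in amphetamine mice, 56.8 against 50.2%. The large island over exon 1A and the main Gnas promoter (chr2:174327294-174331145, 249 reachable CpG sites) was at 19.04% ± 3.67 (SD, n = 6) in saline and 16.3% ± 2.23 (SD, n = 5) in amphetamine mice, a difference of -2.76 (interval -6.79 to 1.28, adjusted p = 0.923).

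**Figure D4:**
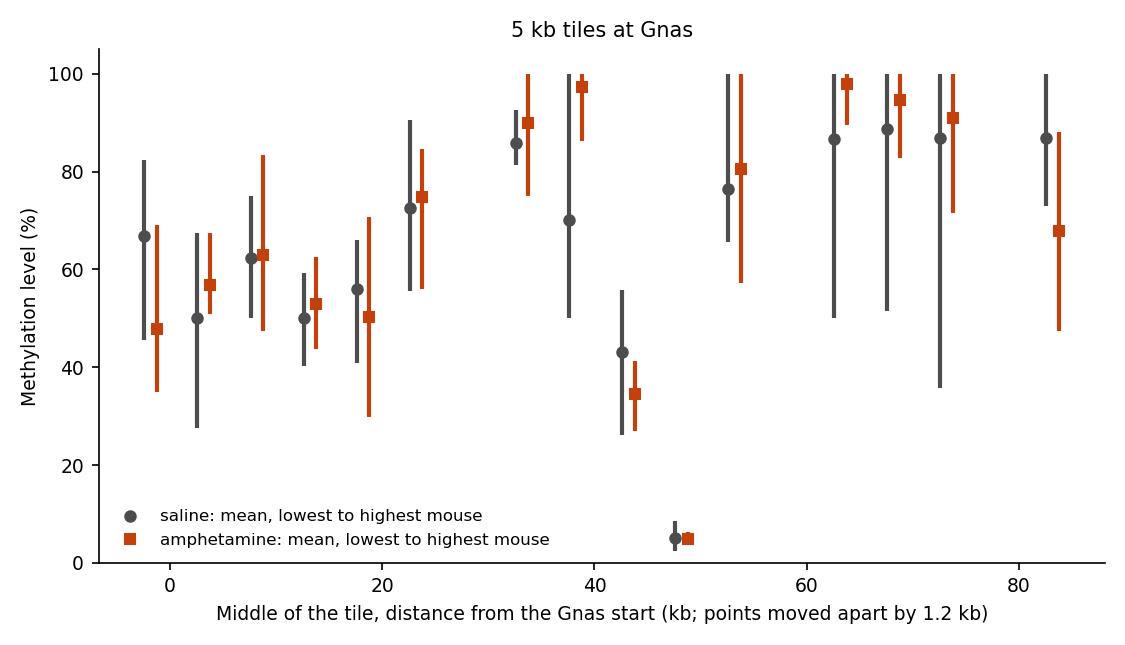
Methylation level in percent of 5000 bp tiles at Gnas with reads in all 11 mice, against the distance of the middle of the tile from the most upstream Gnas start in kb; symbols mark the group mean and lines run from the lowest to the highest mouse. The tile that spans the start is at 66.7% in saline and 47.7% in amphetamine mice, the tile over the extra-large exon at 50.05 and 52.9%, and the tile over the main promoter at 4.995 and 4.82%.

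Beside Gnas, Blcap, Peg3 and Mkrn3, the member promoters with a difference of over 10 points rested on wide or incomplete groups. The Airn promoter (chr17:12739811-12741810) was at 59.2% in 5 saline mice, from 29.1 to 100%, and at 84.5% in amphetamine mice, from 57.0 to 100%. The Grb10 promoter (chr11:12038184-12040183, 9 reachable CpG sites) was at 20.6% in saline mice, from 0 to 31.9%, and at 40.1% in amphetamine mice, from 8.85 to 100%. The Nap1l5 promoter (chr6:58906627-58908626), of a nucleosome assembly retrogene, was at 31.2% in saline mice, from 9.89 to 52.7%, and at 48.5% in amphetamine mice, from 7.72 to 78.9%. Ndn, which encodes necdin, had reads in 3 amphetamine and 5 saline mice, with means of 8.99 and 21.2%. The interval of the difference held 0 at each of these 4 promoters.

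Mkrn3, an intronless gene for a ring finger protein that restrains the onset of puberty, had the promoter with the next smallest p of those read in all mice (chr7:62419640-62421639). It ran from 16.4 to 33.4% in saline mice (22.5% ± 6.64, SD, n = 6) and from 15.6 to 45.5% in amphetamine mice (33.3% ± 11.9, SD, n = 5). The saline range lay inside the amphetamine range, and the difference was 10.8 percentage points (interval -1.36 to 22.9, adjusted p = 0.958). The Mkrn3 island, which lies in its exon, stood at 21.7% in saline and 33.01% in amphetamine mice (interval of the difference -5.87 to 28.5). It lies inside that promoter region and shares CpG sites with it, so it is not a second observation.

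Among gene bodies the smallest unadjusted p-values belonged to Impact (0.0825), Zrsr1 (0.0963) and Mirg (0.121), all with an adjusted p of 0.984. Impact, a translational regulator read from the paternal copy, had a body (chr18:12972252-12992948) at 68.8% ± 12.8 (SD, n = 6) in saline mice and 80.1% ± 5.47 (SD, n = 5) in amphetamine mice. Zrsr1, a splicing factor retrogene (chr11:22973215-22976496), had its body at 43.6% ± 15.2 (SD, n = 6) and 58.1% ± 12.0 (SD, n = 5), while its promoter was at 43.3 and 41.01%. Mirg (chr12:109729764-109749460) stood at 96.5% ± 8.56 (SD, n = 6) and 85.0% ± 14.9 (SD, n = 5), with a lowest coverage of 3 in an amphetamine mouse.

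Among islands with reads in all mice the smallest p-values belonged to unmethylated ones. The Rasgrf1 promoter island (chr9:89908632-89911157), of a paternally expressed exchange factor of Ras, was at 2.46% ± 1.81 (SD, n = 6) in saline and 0.997% ± 0.671 (SD, n = 5) in amphetamine mice. The Commd1 island (chr11:22981957-22982373) was at 3.04% ± 2.80 (SD, n = 6) and 0.812% ± 1.15 (SD, n = 5). The differences were -1.46 and -2.22 percentage points, the ranges overlapped at both, and the adjusted p was 0.923 for each.

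The largest difference of any member island was at Impact, named after its values were seen because reads were present in only 5 of 6 saline mice. This island (chr18:12973304-12973796) lies in an intron of Impact, holds no annotated exon and is the known maternally methylated region of the gene. Saline mice ran from 0 to 61.7% around 33.6% ± 23.8 (SD, n = 5), and amphetamine mice from 71.3 to 82.3% around 78.5% ± 4.47 (SD, n = 5). The 5 saline mice with reads all lay below the 5 amphetamine mice. The difference was 44.8 percentage points (interval 21.5 to 68.2), with an unadjusted p of 0.00188 and an adjusted p of 0.923. Mean coverage was 88.6 in amphetamine and 85.7 in saline mice, over 20 reachable CpG sites. The saline value counts the mouse without reads as 0, so it is lower than the mean of the 5 saline mice compared. The tile around it, with reads in all mice, ran from 0 to 63.1% in saline mice and from 60.9 to 81.5% in amphetamine mice, so there the ranges met. The next tile with reads downstream was at 98.3% in saline and 96.6% in amphetamine mice.

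Of 351 member tiles with reads in all mice, 1 had ranges that did not overlap, where 0.351% of all tiles with reads in all mice did. It ends 8547 bases upstream of the start of Mest, a paternally expressed hydrolase-like gene named for mesoderm. Saline mice ran from 61.1 to 89.8% around 75.6% and amphetamine mice from 47.3 to 57.9% around 52.1%. The difference was -23.5 percentage points (interval -34.4 to -12.6) with an unadjusted p of 0.000724 and an adjusted p of 0.673. Tiles on either side were at 98.6 and 85.8% in saline mice and at 100 and 86.4% in amphetamine mice. Inside the gene, the tile at chr6:30735001-30740000 was intermediate, at 50.8% with an SD of 21.4 in saline mice and at 61.2% in amphetamine mice. The Mest body as a whole stood at 63.3 and 68.5%.

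After adjustment no member was called by sex. Females and males, the same 11 mice split 6 and 5, gave 0 members at an adjusted p under 0.05 in limma's moderated test, where 0.564% of promoters, 0.373% of bodies and 1.09% of islands of the series passed. The shares of the series include the sex chromosomes, while all members lie on autosomes, so they are not a like background. At an unadjusted p under 0.05 there were 0 promoters of 33, 2 bodies of 41 and 1 island of 44 among the members, against 6.07%, 6.5% and 6.65% of the series. Of 448 tested member tiles 34 passed it (7.59%), and the share over all tiles was not taken. The promoters, bodies and islands that passed were the bodies of Zrsr1 (42.2% in females, 59.8% in males) and Mcts2 (60.2 and 29.2%) and the island of Magel2 (22.4 and 31.4%), named after their values were seen. The Magel2 promoter has the same values as this island. In limma's moderated test its unadjusted p was 0.0511, against 0.0495 for the island, as each class was fitted separately. The adjusted p-values of the 2 bodies and the island in limma's moderated test were 0.732, 0.735 and 0.751. Both comparisons divide the same mice, and treatment and sex are not balanced across them.

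In the Igf2-Kcnq1 domain, 0 of 10 promoters, 0 of 11 islands and 1 of 14 bodies were near 50% with a low SD in saline mice. None of its promoters and 1 of its 14 bodies, that of Kcnq1, had an unadjusted p under 0.05 for treatment. Genes that write or keep imprints (ZFP57 and its partner TRIM28, the maintenance methyltransferase DNMT1 with UHRF1, the de novo enzymes, TET enzymes and CTCF among 14 listed) had 10 promoters and 14 bodies in the tables. After adjustment 0 passed. Without adjustment 1 promoter of 10, that of Tet2 (1.86% in saline, 3.80% in amphetamine mice), passed 0.05. Of the 14 bodies 1 did, that of Uhrf1 (56.4 and 50.5%). Both were named after their values were seen. In the whole series 4.11% of promoters and 4.38% of bodies passed it, which is also the background for the Igf2-Kcnq1 domain.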

How the data were processed

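Methylation of pancreas DNA was measured by reduced representation bisulfite sequencing in 11 pups. Per the study's methods, single-end reads were aligned to mm10 with Bismark and summarised with RnBeads; the submitters' processing notes also name limma and methylKit, without versions. For each promoter (1500 bp before to 500 bp after a start), gene body, CpG island and 5000 bp tile the authors deposited the mean, SD, lowest and highest methylation fraction of each group, here multiplied to percent. The deposited coverage is a signal given as the mean over each group's mice, with no scaling for depth; reads per mouse were not analysed here, so no counting interval is given. Columns of the authors' own differences, log2 ratios, p-values and ranks were not used.

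Members were matched by symbol, and islands by overlap with a member promoter or body. The moderated test of limma 3.58.1 (R 4.3.3, two-sided, no covariate, at least 2 mice per group) was rebuilt from means, SDs and numbers of mice and checked against limma on simulated data. Sex could not enter a fit made from group summaries. Full values are given for members with a promoter or island at 40 to 60% and an SD of at most 10 points in saline mice, and for the 3 promoters, 3 bodies and 3 islands with the smallest unadjusted p and reads in all mice. Members and lists were chosen with earlier results of these data known. Annotation came from GENCODE vM21 and sequences from RefSeq GRCm38, the build of the files. Alternatives were other limits and thresholds, a log2 scale with an offset of 0.01, a coverage of at least 10, and leaving out the lowest or highest mouse.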

Additional observations from a re-analysis of the deposited data

How the results depend on the processing

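With an SD of at most 5 points in saline mice, 0 promoters, 0 islands and 4 bodies of the members were near 50%; with the means and SDs of amphetamine mice in their place, 1 promoter was. Other limits left the counts within 1.5 times of the 3 promoters, 7 bodies and 2 islands. Among these limits, a coverage of at least 10 could not change the counts, as each of these regions had a mean saline coverage of 53 or more. At an unadjusted p under 0.05 instead of an adjusted one, 2 promoters and 1 island were called for treatment, and 2 bodies and 1 island for sex; the other rules tried for treatment called 0 member promoters, bodies and islands, where the rule of ranges that do not overlap was run only on regions with reads in all mice and so left out the Impact island. Leaving out the lowest or the highest mouse of a group, the 14 regions described in full gave 56 refits, none of which passed an adjusted p of 0.05. The Gnas promoter ranged from -38.9 to -27.8 points and the Impact island from 36.4 to 51.9; the Peg3 promoter ranged from -14.6 to -4.63 (without the highest and without the lowest amphetamine mouse). Other differences also moved by more than 1.5 times: without the lowest amphetamine mouse the Meg3 promoter was at -4.58 and the Mirg body at -6.87, without the highest saline mouse the Meg3 promoter was at -5.14, the Peg3 island at -4.95 and the Rasgrf1 island at -0.944, without the lowest saline mouse the Impact body was at 6.32 and the Zrsr1 body at 9.37, and without the highest amphetamine mouse the Peg3 island was at -15.3. The Peg3 island without the lowest amphetamine mouse was at -5.17. The Gnas extra-large island turned direction in 2 refits, and ranged from -3.21 to 2.47 (0.923 without the highest saline mouse). Leave-one-out by mouse was not run, as values per mouse were not used here. No paired analysis was possible because the tables hold groups and not single mice. The depth of single mice, which limits how narrow an SD can be, enters only as the mean and the lowest coverage of a group.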
